A study of Rattus norvegicus with 37 samples.

Results

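Igf1 (ENSRNOG00000004517) and Ghr (ENSRNOG00000015654) were followed in rat liver across 8 groups of animals with or without spinal cord injury (SCI). These 2 genes were chosen by their Ensembl identifiers out of 24613 gene rows in a table of raw counts. Both are protein-coding, and RefSeq places Igf1 on chromosome 7 and Ghr on chromosome 2. All 37 rats were female Sprague-Dawley animals, an outbred strain, estimated from weight to be 8 to 9 weeks old at the start, and every injury was made at thoracic level T2.

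In the SCI + In-Cage Activity set, 5 rats were uninjured in standard cages (No SCI + Standard), 5 received a 25 g-cm contusion and lived in tiny cages that restrict movement (CONT SCI + Tiny), and 5 received the contusion and lived in large cages (CONT SCI + Large). In the SCI + Exercise set all rats lived in tiny cages: 4 were uninjured (No SCI), 4 had the contusion (CONT SCI), 4 had a complete transection of the cord (TX SCI), 5 swam after the contusion (CONT SCI + SWIM) and 5 walked in shallow water after it (CONT SCI + SWW). The labels place collection at 11.5 weeks after contusion and 8.5 weeks after transection, with exercise from day 10 for 8 weeks. The study's methods give a later start, a longer course and a later collection for the exercised rats. Uninjured and contused rats of the In-Cage set differed in cage as well as in injury, and TX SCI rats differed from the others in time as well as in injury, so these cannot be told apart. Rats were housed in pairs within a group, and which rats shared a cage is not given in the sources used here.

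Growth hormone from the pituitary acts on the liver through the growth hormone receptor, which Ghr encodes. The receptor works with the kinase JAK2 and the transcription factor STAT5b, and Igf1 is the best known hepatic gene that this route switches on. Its product, insulin-like growth factor 1, is made for the circulation mainly by hepatocytes and restrains further growth hormone release. The extracellular part of the receptor also circulates as a growth hormone binding protein. Undernutrition and severe illness are known to lower hepatic Igf1.

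The libraries were made from poly(A) RNA and read from a single end. The reads counted on genes numbered 20066978 to 25130252 per In-Cage library and 26190364 to 36761953 per Exercise library, so the sets did not overlap in depth. Both members were counted deeply: Igf1 had between 5541 and 13257 reads per library and Ghr between 9389 and 22600, and only 332 and 227 of all genes had a higher mean count. Counting error was therefore small beside the differences between rats. Levels are given in CPM, read counts relative to library size after TMM scaling over all libraries. These are not divided by transcript length, so the level of Igf1 is not compared with that of Ghr. The identifiers of other genes could not be paired with names, so the markers of liver cell types and the other genes of the growth hormone pathway were not analysed here. In whole tissue, fewer hepatocytes and less RNA per hepatocyte cannot be told apart.

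Igf1, the secreted growth factor, was highest on average in No SCI + Standard. In No SCI + Standard it stood at 462.7, 378.9, 401.5, 348.3 and 493.4 CPM in replicates 1 to 5. In CONT SCI + Tiny it stood at 377.6, 436.2, 381.8, 260.0 and 437.4 CPM, and in CONT SCI + Large at 374.6, 300.4, 410.6, 445.9 and 376.1 CPM. The ranges of these 3 groups overlapped, and the lowest In-Cage liver was CONT SCI + Tiny replicate 4. The group means were 417.0 ± 59.9 (SD, n = 5), 378.6 ± 72.2 (SD, n = 5) and 381.5 ± 53.9 CPM (SD, n = 5).

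In the Exercise set, Igf1 was tightest among the uninjured rats, at 306.8, 315.1, 294.3 and 304.2 CPM in No SCI. In CONT SCI it was 323.9, 345.0, 318.9 and 291.1 CPM, and in TX SCI 367.2, 311.3, 353.6 and 419.5 CPM. The transected rats included the 3 highest values of these 12 rats, while their lowest rat lay within the ranges of No SCI and CONT SCI. In CONT SCI + SWIM it was 290.2, 291.7, 209.9, 287.9 and 236.1 CPM, and in CONT SCI + SWW 360.6, 281.6, 300.2, 331.4 and 282.0 CPM. All 5 swimming rats lay below all 4 No SCI rats and below all 4 TX SCI rats, as for 3.84% and 3.4% of genes tested. Of the swimming rats 3 stood close together near the lowest No SCI rat. With library totals swimming rats reached 320.3 CPM and overlapped with No SCI, whose lowest rat stood at 289.6 CPM. They stayed below all TX SCI rats. No SCI averaged 305.1 ± 8.58 CPM (SD, n = 4), CONT SCI averaged 319.8 ± 22.2 CPM (SD, n = 4) and TX SCI averaged 362.9 ± 44.6 CPM (SD, n = 4). Swimming rats averaged 263.1 ± 37.8 CPM (SD, n = 5) and walking rats 311.2 ± 34.3 CPM (SD, n = 5).

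Ghr, the receptor gene, was most variable in the In-Cage set. It stood at 641.8, 736.4, 632.1, 776.5 and 663.4 CPM in No SCI + Standard and at 722.9, 630.9, 522.9, 988.7 and 672.7 CPM in CONT SCI + Tiny. In CONT SCI + Large it stood at 569.4, 423.2, 543.1, 523.0 and 600.5 CPM. All 5 rats of the large cages lay below all 5 uninjured rats of the standard cages, as for 4.13% of genes tested. The tiny-cage rats overlapped with both groups. With scaling by library totals the large-cage and uninjured rats overlapped as well. The highest Ghr value of all 37 livers, 988.7 CPM, belonged to CONT SCI + Tiny replicate 4, the same liver that had the lowest Igf1 of its set. The means were 690.0 ± 63.3 (SD, n = 5), 707.6 ± 173.6 (SD, n = 5) and 531.8 ± 67.3 CPM (SD, n = 5).

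Among the Exercise rats Ghr showed little spread between groups. It was 467.2, 488.2, 492.2 and 416.1 CPM in No SCI, 492.0, 493.1, 430.0 and 423.8 CPM in CONT SCI and 445.3, 440.9, 380.1 and 433.5 CPM in TX SCI. In CONT SCI + SWIM it was 451.8, 510.1, 409.8, 535.9 and 346.0 CPM, and in CONT SCI + SWW 496.7, 457.9, 406.5, 504.8 and 490.6 CPM. The swimming rats spanned the widest range of the set and contained both its lowest and its highest liver, and every group overlapped with every other. The means ran from 425.0 ± 30.3 CPM (SD, n = 4) in TX SCI to 471.3 ± 40.4 CPM (SD, n = 5) in CONT SCI + SWW.

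**Figure D1:**
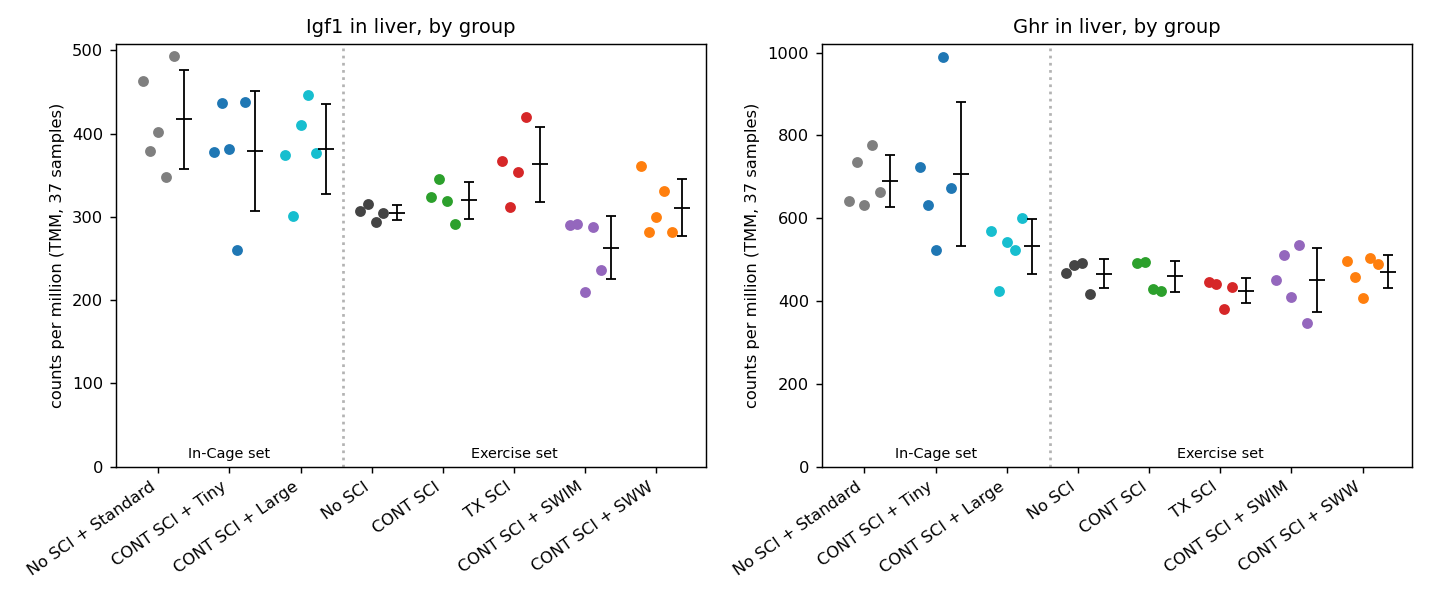
Igf1 (left) and Ghr (right) in each liver, in TMM-scaled CPM on the vertical axis from 0, by group on the horizontal axis; each point is a rat, in order of replicate number, and the bar beside it is the mean with 1 SD. Ghr of the 5 CONT SCI + Large rats lies between 423.2 and 600.5, below all No SCI + Standard rats, and CONT SCI + Tiny replicate 4 has the highest Ghr at 988.7.

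In order of group means, Igf1 ran from No SCI + Standard through CONT SCI + Large, CONT SCI + Tiny, TX SCI, CONT SCI, CONT SCI + SWW and No SCI to CONT SCI + SWIM. Ghr ran from CONT SCI + Tiny through No SCI + Standard, CONT SCI + Large, CONT SCI + SWW, No SCI, CONT SCI and CONT SCI + SWIM to TX SCI. Within a set, no neighbours in either order passed edgeR's test of their difference.

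Differences between groups of a set were tested with edgeR's quasi-likelihood test, fitted over all genes of the groups compared and adjusted by the Benjamini-Hochberg method, with an adjusted p under 0.05 as a call. In the 13 comparisons within a set, 0 of the 26 tests of Igf1 or Ghr were called by edgeR. An unadjusted p under 0.05 was reached in 2 comparisons for Igf1 and in 2 for Ghr. DESeq2 called 1 of the 26, Ghr in CONT SCI + Large against No SCI + Standard, where it called 12.5% of the 10980 genes to which it gave an adjusted p. The widest bound of the 95% intervals of these differences was 0.81 on the log2 scale, and larger changes lay outside every interval.

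The first question was whether contusion, with its housing, changed the axis. In the In-Cage set, CONT SCI + Tiny over No SCI + Standard gave a log2 fold change of -0.16 for Igf1 (SE, the standard error, 0.15, 95% interval -0.49 to 0.16, adjusted p = 0.464, edgeR) and of 0.01 for Ghr (SE 0.16, 95% interval -0.32 to 0.35, adjusted p = 0.963). In this comparison 12.5% of all genes tested were called, and 7.77% had ranges that did not overlap, which neither member did. Without CONT SCI + Tiny replicate 4 the log2 fold changes were -0.06 for Igf1 and -0.14 for Ghr, and without No SCI + Standard replicate 5 that of Igf1 was -0.09. In the Exercise set, where both groups lived in tiny cages, CONT SCI differed from No SCI by 0.07 for Igf1 (95% interval -0.17 to 0.30, adjusted p = 0.998, edgeR) and by -0.02 for Ghr (95% interval -0.28 to 0.24, adjusted p = 0.998), with 0.00801% of genes called. Both members overlapped, where 2.6% of genes did not.

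Whether the effect of contusion with its housing differed between the sets was tested as an interaction. In the In-Cage set it includes the step from standard to tiny cages, which the Exercise set lacks. Contusion and cage therefore cannot be told apart in this test. The effect in the Exercise set less that in the In-Cage set was 0.22 for Igf1 (SE 0.20, 95% interval -0.19 to 0.62, adjusted p = 0.489, edgeR) and -0.05 for Ghr (SE 0.20, 95% interval -0.47 to 0.37, adjusted p = 0.898), with 0.199% of genes called, a count of 25 that became 2010 without No SCI replicate 2 and 1031 without No SCI + Standard replicate 1, and 773 with DESeq2. Without CONT SCI + Tiny replicate 4 these values were 0.11 and 0.10, and the Igf1 value was 0.14 without No SCI + Standard replicate 5 and 0.13 with library totals.

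The large cages gave the lowest unadjusted p for Ghr within a set. Ghr fell by 0.39 on the log2 scale from No SCI + Standard to CONT SCI + Large, with an SE of 0.13 and a 95% interval of -0.67 to -0.12. The unadjusted p of edgeR was 0.00887 and the adjusted p 0.0929, which misses the threshold, while DESeq2 gave -0.38 with an adjusted p of 0.0324. The 2 groups did not overlap in Ghr with TMM scaling, as was the case for 4.13% of the genes tested. In this comparison edgeR called 0.0337% of all genes, while DESeq2 called 1375 genes, or 12.5%. With library totals the Ghr value was -0.30 (unadjusted p = 0.0417, adjusted p = 0.157, edgeR), and the median of all genes moved from -0.02 to 0.07. The groups then overlapped, with No SCI + Standard replicate 1 at 529.3 CPM and CONT SCI + Large replicate 5 at 582.1 CPM. For Igf1 the same comparison gave -0.15 (95% interval -0.45 to 0.16, adjusted p = 0.500, edgeR). This Igf1 value was -0.07 without CONT SCI + Large replicate 2, -0.08 without No SCI + Standard replicate 1, -0.05 without No SCI + Standard replicate 5 and -0.05 with library totals.

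Cage size after contusion was compared directly between the large and the tiny cages. Ghr was -0.40 in CONT SCI + Large relative to CONT SCI + Tiny on the log2 scale (SE 0.16, 95% interval -0.76 to -0.05, unadjusted p = 0.0278, adjusted p = 1.00, edgeR), and Igf1 was 0.02 (95% interval -0.31 to 0.35, adjusted p = 1.00). In this comparison edgeR called 0% of genes, 346 had an unadjusted p under 0.05 and DESeq2 called 3. Both members overlapped, where 0.503% of genes did not. The Ghr value was -0.26 without CONT SCI + Tiny replicate 4, a difference of over 1.5 times, and its unadjusted p was then 0.0779.

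Complete transection, compared with no injury, went with a log2 fold change of 0.26 for Igf1 (SE 0.14, 95% interval -0.06 to 0.58, adjusted p = 0.517, edgeR) and of -0.12 for Ghr (SE 0.14, 95% interval -0.44 to 0.20, adjusted p = 0.805), with 0.0638% of genes called. Both members overlapped, where 8% of genes did not. With library totals Igf1 stood at 0.31 (95% interval 0.02 to 0.59, unadjusted p = 0.0388, adjusted p = 0.395, edgeR), and the median of all genes moved from 0.02 to 0.08. With all groups of the set in 1 fit it stood at 0.27 (95% interval 0.01 to 0.53, unadjusted p = 0.0405, adjusted p = 0.265, edgeR). Against CONT SCI the values were 0.17 for Igf1 (95% interval -0.10 to 0.45, adjusted p = 0.578) and -0.12 for Ghr (95% interval -0.39 to 0.15, adjusted p = 0.713), with 0.0321% of genes called and 8.93% without overlap, neither member among them. With libraries scaled by their totals alone, the values against CONT SCI were 0.30 for Igf1 (unadjusted p = 0.0250, adjusted p = 0.240, edgeR) and 0.01 for Ghr, and the median of all genes moved from 0.01 to 0.14. With TMM the Igf1 value against CONT SCI was 0.27 without TX SCI replicate 2 and 0.11 without TX SCI replicate 4. Without TX SCI replicate 3 that of Ghr was -0.07 against CONT SCI and -0.07 against No SCI.

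Exercise after contusion was tested against CONT SCI. By the study's methods the exercised rats were collected later than the other contused rats, and exercise and time then cannot be told apart. After swimming Igf1 stood at -0.28 on the log2 scale (SE 0.12, 95% interval -0.55 to -0.02, unadjusted p = 0.0394, adjusted p = 0.349, edgeR), where 0.008% of genes were called. Ghr stood at -0.03 (95% interval -0.32 to 0.26, adjusted p = 0.947). Both members overlapped, where 5.71% of genes did not. With scaling by library totals the values were -0.16 for Igf1 and 0.09 for Ghr, and the median of all genes moved from 0.02 to 0.14. After shallow water walking Igf1 stood at -0.02 (95% interval -0.26 to 0.22, adjusted p = 0.930) and Ghr at 0.05 (95% interval -0.17 to 0.28, adjusted p = 0.807), where 0.759% of genes were called and 8.53% did not overlap. With library totals Igf1 stood at 0.05, where the median of all genes was 0.12. Between swimming and walking the log2 fold change of Igf1 was -0.25 (95% interval -0.53 to 0.02, adjusted p = 0.782) and that of Ghr -0.08 (95% interval -0.36 to 0.21, adjusted p = 0.889). Here edgeR called 0% of genes, 680 had an unadjusted p under 0.05, DESeq2 called 14, and 0.655% did not overlap.

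The lowest Igf1 among swimming rats was in replicate 3, the library with the fewest genes detected of all 37, at 13648. In the paper's alignment summary it also had the lowest share of uniquely mapped reads. Replicate 5, next lowest in Igf1, had the next lowest share among swimming rats. TX SCI replicate 4 had a still lower share than replicate 5, but the highest Igf1 of its group. Without swimming replicate 3 the log2 fold change against CONT SCI was -0.20 (unadjusted p = 0.0952, adjusted p = 0.448, edgeR). The part of library quality in this value was not tested.

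Against the uninjured rats, swimming gave a log2 fold change of -0.21 for Igf1 (95% interval -0.50 to 0.08, adjusted p = 0.624, edgeR) and of -0.05 for Ghr (95% interval -0.37 to 0.28, adjusted p = 0.946), and 0.00796% of genes were called. With library totals Ghr stood at 0.01, where the median of all genes was 0.07. The non-overlap of Igf1 in this comparison was shared by 3.84% of the genes tested and was not seen with library totals. Walking gave 0.02 for Igf1 (95% interval -0.25 to 0.30, adjusted p = 0.928) and 0.01 for Ghr (95% interval -0.26 to 0.29, adjusted p = 0.966), with 0.394% of genes called and 7.1% without overlap. That count of 50 genes became 1684 without No SCI replicate 2 and 936 with DESeq2.

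The largest Igf1 difference within a set lay between swimming and transection. Igf1 in CONT SCI + SWIM was -0.48 relative to TX SCI on the log2 scale (SE 0.15, 95% interval -0.81 to -0.15), with an unadjusted p of 0.00839 and an adjusted p of 0.422 from edgeR. These groups did not overlap in Igf1, as for 3.4% of the genes tested, and 0.0159% of genes were called. With 1 rat left out the Igf1 difference ran from -0.54 to -0.40. It was -0.41 without swimming replicate 3 and -0.40 without TX SCI replicate 4. Both libraries had low shares of uniquely mapped reads in the paper's alignment summary, and the part of library quality was not tested. Ghr differed by 0.07 (95% interval -0.28 to 0.41, adjusted p = 0.931). For CONT SCI + SWW against TX SCI the values were -0.21 for Igf1 (95% interval -0.50 to 0.08, adjusted p = 0.461) and 0.16 for Ghr (95% interval -0.11 to 0.42, adjusted p = 0.546), with 0.00791% of genes called and 4.45% without overlap. Swimming and walking rats differed from TX SCI rats in the type of injury, in exercise and in the time of collection after injury, which cannot be told apart.

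**Figure D2:**
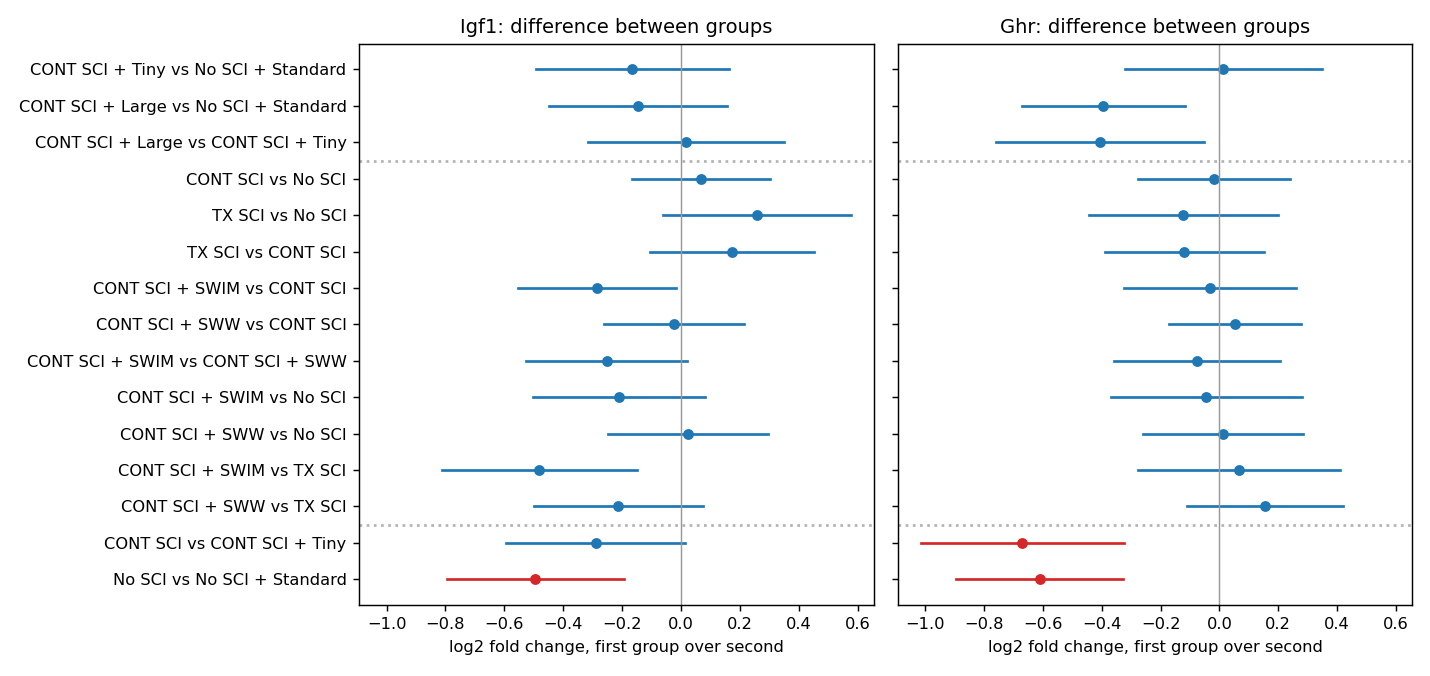
Log2 fold change of Igf1 (left) and Ghr (right) for each comparison, first group over second, with its 95% interval from edgeR's quasi-likelihood fit; dotted lines part the In-Cage, Exercise and between-set comparisons. Red marks an adjusted p under 0.05, which is reached only between the sets, by Ghr at -0.67 and -0.61 and by Igf1 at -0.49.

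Levels differed between the sets for the same condition. From No SCI + Standard to No SCI, the log2 level of Igf1 fell by 0.49 with an adjusted p of 0.0104 from edgeR (SE 0.14), and that of Ghr fell by 0.61 with an adjusted p of 0.00233 (SE 0.13). From CONT SCI + Tiny to CONT SCI, which share injury and cage size, Ghr fell by 0.67 with an adjusted p of 0.0044 (SE 0.16), and Igf1 stood at -0.29 with an adjusted p of 0.11 (SE 0.14). Igf1 stood at -0.40 without CONT SCI + Tiny replicate 4, with an adjusted p of 0.00799, and at -0.16 with library totals. The background was high: 51.4% of genes were called between the uninjured groups and 45.1% between the contused groups, and 39.4% and 35.6% of genes did not overlap, so a call here does not set either member apart. Set, depth and, for the uninjured rats, cage size cannot be told apart. Scaling by library totals moved the median of all genes between the uninjured groups from -0.01 to 0.18 and the Igf1 value to -0.29 (adjusted p = 0.0985, edgeR), and Ghr stayed called at -0.41 (adjusted p = 0.028).

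The number of Igf1 reads per Ghr read of the same library does not depend on scaling between libraries. It was 0.721, 0.515, 0.635, 0.449 and 0.744 in No SCI + Standard, 0.522, 0.691, 0.730, 0.263 and 0.650 in CONT SCI + Tiny and 0.658, 0.710, 0.756, 0.852 and 0.626 in CONT SCI + Large. CONT SCI + Tiny replicate 4, at 0.263, was the lowest of all 37 livers, and the next was 0.449. That library had 25130252 reads on genes, the most of its set, with 14946 genes detected and 30.1% of reads in its 10 highest genes, both inside the range of the set.

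In the Exercise set the ratio was 0.657, 0.645, 0.598 and 0.731 in No SCI and 0.658, 0.70, 0.742 and 0.687 in CONT SCI. It was 0.825, 0.706, 0.930 and 0.968 in TX SCI. The exercised rats had 0.642, 0.572, 0.512, 0.537 and 0.682 after swimming and 0.726, 0.615, 0.738, 0.656 and 0.575 after walking. Of the 4 transected rats 3 had the highest ratios of the set, and no swimming rat reached the lowest transected rat.

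Each within-set comparison of the log2 ratio was tested with a two-sided exact permutation test over rats. The ratio was 0.69 times as high after swimming as after transection (exact permutation p = 0.0159, which no 5 against 4 rats can go below), 0.77 times after walking as after transection (exact permutation p = 0.0476) and 0.84 times after swimming as in CONT SCI (exact permutation p = 0.0317). Adjusted over the 13 comparisons, each of these had an exact permutation p of 0.149. TX SCI was 1.30 times No SCI and 1.22 times CONT SCI (exact permutation p = 0.0571 for each, where 4 rats against 4 allow no p under 0.0286). No comparison passed after adjustment. Over 13 comparisons none could have passed alone, since even 5 rats against 5 allow no exact permutation p under 0.00794. No conclusion is therefore drawn from that failure. With 1 rat left out the log2 difference ran from -0.30 to -0.20 for swimming against CONT SCI, from -0.46 to -0.31 for walking against transection and from -0.63 to -0.48 for swimming against transection. The smallest exact permutation p of those reduced designs is 0.0286 or 0.0357, so their p-values are not read as a sign of stability.

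**Figure D3:**
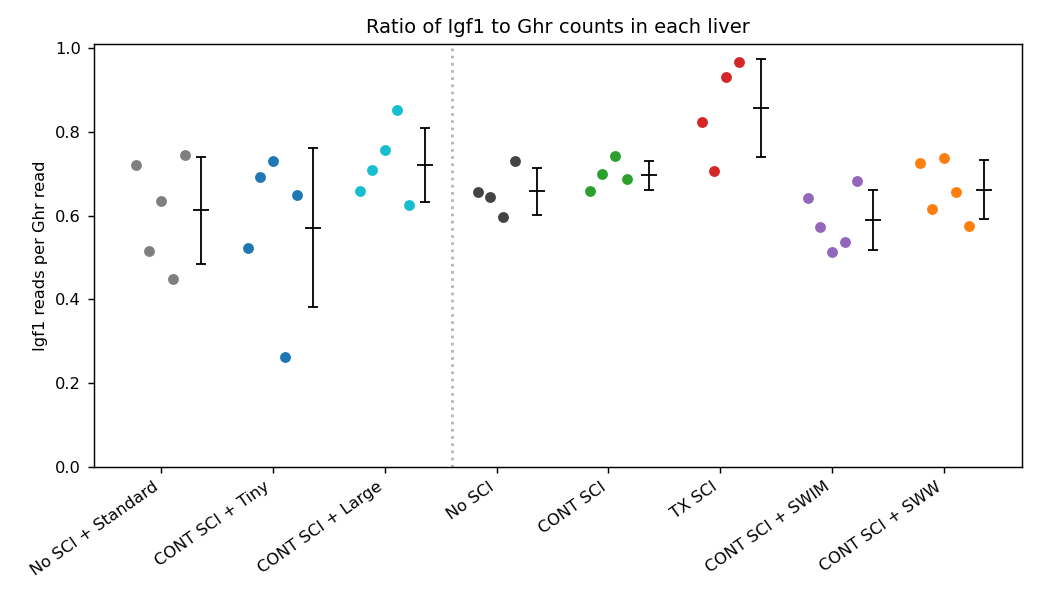
Igf1 reads per Ghr read in each liver on the vertical axis, by group on the horizontal axis; points are rats, and the bar beside them is the mean with 1 SD. TX SCI rats range from 0.706 to 0.968 and CONT SCI + SWIM rats from 0.512 to 0.682, and CONT SCI + Tiny replicate 4 stands at 0.263.

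Whether the receptor and its target rose and fell together across rats was examined within each set. In the In-Cage set, Pearson's r between log2 levels of Ghr and Igf1 was -0.24 (permutation p = 0.381, n = 15) and Spearman's rho -0.13 (permutation p = 0.649). Without CONT SCI + Tiny replicate 4 and CONT SCI + Large replicate 2, the rats farthest from the median of Ghr, r was -0.20 (permutation p = 0.514, n = 13). The sign rested on 1 rat, since r was 0.30 without CONT SCI + Tiny replicate 4 alone and -0.63 without CONT SCI + Large replicate 2 alone.

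In the Exercise set r was 0.26 (permutation p = 0.252, n = 22) and rho 0.13 (permutation p = 0.566), and without CONT SCI + SWIM replicate 5 and TX SCI replicate 3 r was 0.16 (permutation p = 0.506, n = 20). Without CONT SCI + SWIM replicate 5 alone it was 0.04. After each group's mean was taken off, r was 0.53 (permutation p = 0.0557) and rho 0.60 (permutation p = 0.0139) in the Exercise set, and -0.42 (permutation p = 0.224) and -0.38 (permutation p = 0.193) in the In-Cage set. Over the 4 values of each kind the lowest adjusted permutation p was 0.223 for r and 0.0554 for rho, so no relation passed. With library totals in place of TMM the Exercise values less their group mean gave r = 0.63 (permutation p = 0.018, adjusted 0.0719) and rho = 0.64 (permutation p = 0.011, adjusted 0.0439), and rho then passed. Library totals leave out the TMM factors, which ran from 0.944 to 1.17 in this set, and such a factor moves both members alike. With relative log expression, the study's scaling, rho was 0.58 (permutation p = 0.0236, adjusted 0.0944) and did not pass. The values less their group mean were not recomputed with 1 rat left out.

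**Figure D4:**
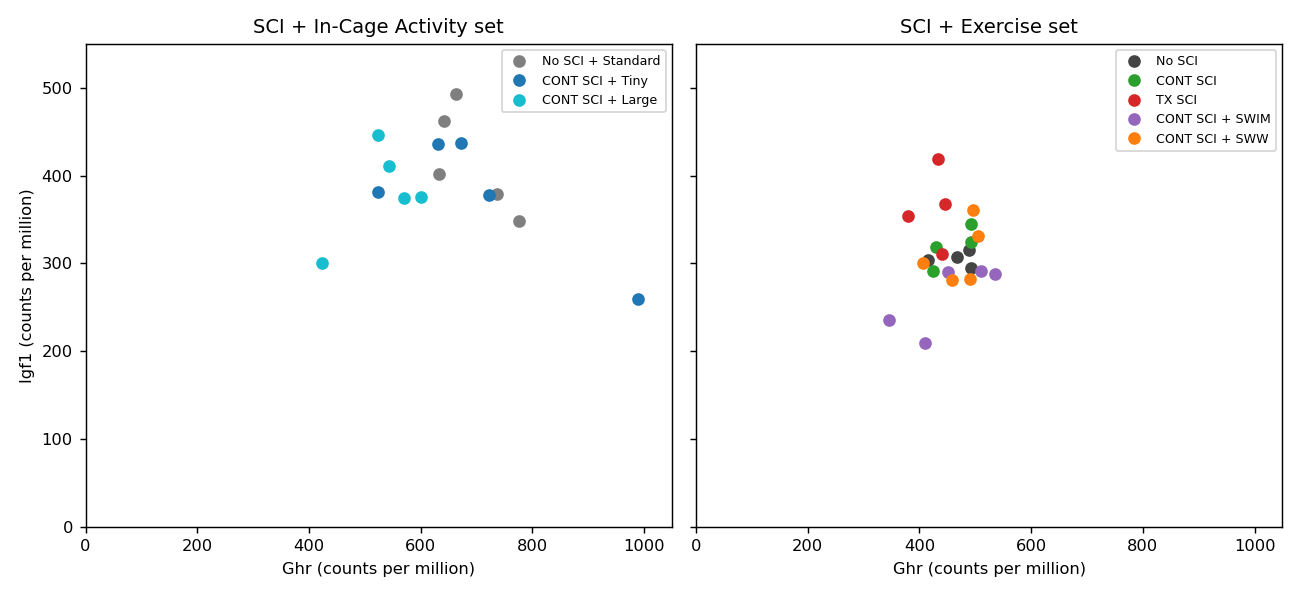
Igf1 against Ghr in each liver, both in TMM-scaled CPM with axes from 0, for the In-Cage set (left) and the Exercise set (right); each point is a rat and colours are groups. CONT SCI + Tiny replicate 4 lies alone at a Ghr of 988.7 and an Igf1 of 260.0.

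Between rats of the same group both members varied less than most genes. The pooled SD of the log2 level was 0.20 for Igf1 and 0.20 for Ghr, against a median of 0.24 over the 9099 genes with a mean of at least 100 counts, and 31.1% and 29.6% of those genes varied less. The share of variance that lay between groups went the other way in each set. It was 8.41% for Igf1 and 42.5% for Ghr among In-Cage rats, where the median gene had 28.2%, and 55.0% for Igf1 and 12.0% for Ghr among Exercise rats, where the median gene had 27.97%. These shares are descriptions and were not tested.

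By the pattern over all 37 livers, with each set's mean taken off, the genes most like Igf1 were ENSRNOG00000002615 (Pearson's r = 0.65) and ENSRNOG00000004060 (r = 0.62). Those most like Ghr were ENSRNOG00000006709 (r = 0.74) and ENSRNOG00000037188 (r = 0.68). In the In-Cage set alone r was 0.49 and 0.38 for the genes like Igf1, and 0.85 and 0.73 for those like Ghr. In the Exercise set alone it was 0.76 and 0.77 for the genes like Igf1, and 0.71 and 0.68 for those like Ghr. The genes named were the highest of 9097 genes over all livers and share libraries and scaling with the members, so they are given as a description. By the same measure Igf1 and Ghr had an r of -0.03 with each other.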

How the data were processed

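Per the study's methods, the authors aligned single-end reads to the Rn6 genome with STAR, counted them with HTSeq by strand on Ensembl genes without mitochondrial genes, and deposited raw counts without normalization. All 37 columns were matched to samples by title. Genes with too few counts were left out by filterByExpr (minimum count 10, minimum total 15). Fits used edgeR 4.0.16 in R 4.3.3 with TMM factors and robust quasi-likelihood on the groups compared, and DESeq2 1.42.0 was an alternative. The standard error is the log2 fold change divided by the square root of F. Correlations and permutation tests of levels used log2(CPM + 1), and correlations were permuted 100000 times, within groups for values less their group mean. In simulated data for CONT SCI + Tiny against No SCI + Standard (11859 genes), edgeR recovered 76% of changes of 1 and 98% of changes of 2 on the log2 scale. The intervals held 95.3% of true values. For CONT SCI against No SCI (12482 genes) it recovered 66% and 96%, and the intervals held 95.4%. The members differed by less than 1 within a set, and recovery of such smaller changes was not tested.

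The members, lists and comparisons were chosen with earlier results of these data known. The named genes are both members and the 2 genes most like each. The RefSeq table (47357 genes) matched 0 Ensembl identifiers, so lists of 81 symbols for the growth hormone axis and cell types were not analysed here. All 68 pairs of libraries of a group differed by more than sampling noise (lowest reduced chi-square 31.0). The labels number the samples as replicates, and the methods describe 1 liver from each rat.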

Additional observations from a re-analysis of the deposited data

How the results depend on the processing

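Counting error was small for both members at this depth. Log2 fold changes near 0 changed sign. With scaling by library totals, Ghr was 0.0086 in TX SCI over CONT SCI, and in SWIM it was 0.091 over CONT SCI and 0.012 over No SCI, while Igf1 was 0.050 in SWW over CONT SCI. In 0 of 15 pairs of groups was every correlation between rats of the same replicate number over 0.1 (range -0.55 to 0.65). Rats of different numbers were not compared, so this does not show that pairing was absent. With the replicate block, Ghr was -0.015 in CONT SCI + Tiny over No SCI + Standard, -0.0076 in SWW over No SCI, and in SWIM 0.047 over CONT SCI and 0.034 over No SCI, while Igf1 was 0.010 in SWW over CONT SCI. DESeq2 called Ghr in CONT SCI + Large over No SCI + Standard (-0.38). Between the uninjured groups Igf1 lost its call with library totals (-0.29), the replicate block (-0.41) and exact permutation (-0.44), as did Ghr with exact permutation (-0.56, and -0.59 between the contused groups). These permutation p-values were the smallest that 4 rats against 5 allow (0.0159, adjusted 0.0794), so that loss says nothing about the differences. The cause of the other changes was not tested. Taking off each group's mean was part of the design, and its use with library totals was added after the values were seen. Igf1 and Ghr then had an r of 0.63 in the Exercise set, with an unadjusted permutation p of 0.018. For the ratio, adjustment over the 13 comparisons was part of the design, but its use as a threshold here came after the values were seen. The 3 log2 differences with an unadjusted exact permutation p under 0.05 (-0.25, -0.54 and -0.37) did not pass it, and none could have passed alone.

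With 1 rat left out, Ghr ran from -0.14 to 0.11 for CONT SCI + Tiny over No SCI + Standard, -0.080 to 0.017 for CONT SCI over No SCI, and -0.039 to 0.064 for SWW over No SCI. For SWIM it ran from -0.099 to 0.051 over CONT SCI, -0.14 to 0.0071 over SWW, -0.11 to 0.037 over No SCI and -0.0028 to 0.15 over TX SCI, and for the interaction from -0.13 to 0.10. Igf1 ran from -0.098 to 0.096 for CONT SCI + Large over CONT SCI + Tiny, -0.085 to 0.015 for SWW over CONT SCI, -0.041 to 0.063 for SWW over No SCI and -0.40 to -0.24 between the contused groups. The log2 ratio ran from -0.27 to 0.098 for CONT SCI + Tiny over No SCI + Standard, -0.30 to -0.20 for SWIM over CONT SCI, -0.038 to 0.059 for SWW over No SCI and -0.46 to -0.31 for SWW over TX SCI. Counts of genes called moved far more: for CONT SCI + Tiny over No SCI + Standard from 1479 to between 15 (without No SCI + Standard replicate 4) and 2998 (without replicate 1), and for CONT SCI + Large over No SCI + Standard from 4 to between 0 and 2020. In the Exercise set, leaving out 1 rat moved 96 genes to between 0 (without CONT SCI replicate 4) and 533 (without SWW replicate 5) for SWW over CONT SCI, 50 to between 2 and 1684 for SWW over No SCI and 4 to between 1 and 234 for TX SCI over CONT SCI, and the interaction's 25 to between 1 and 2010. DESeq2 called 2523, 1375 and 3 genes in the In-Cage comparisons, 14 to 936 in the Exercise comparisons and 773 in the interaction.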
